A study of Mus musculus with 10 samples.

Results

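Complement genes were examined in mRNA array data of mouse left ventricles after transverse aortic banding (TAB), an operation that narrows the aorta and makes the heart pump against a raised pressure. The genes were taken by symbol, as the 9 genes C1qa, C1qb, C1qc, C3, C4b, Cfb, C3ar1, C5ar1 and Serping1. 8 of the 9 had a probe, with 1 probe each, among the 19942 gene symbols of the array. C4b was not analysed here, since no probe used carried its symbol. All samples were male C57BL/6J mice operated on at 8 weeks of age, with either TAB or a sham operation, and left ventricles were taken 3, 5, 7, 14 or 28 days later. There was 1 sample per operation and day, 5 TAB and 5 sham samples in all, and the number of mice behind a sample was not given in the sources used here. The sample titled TAB day 14 has another label that gives 15 days, and it was used as day 14.

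Complement is a cascade of plasma and cell-surface proteins that tags microbes, dying cells and debris for removal. C1q, built from the products of C1qa, C1qb and C1qc, recognizes its targets and starts the classical pathway, whereas factor B drives the amplification loop of the alternative pathway, and both lead to cleavage of C3. Most plasma complement is made in the liver, but macrophages are the main source of C1q, and macrophages and fibroblasts also make C3 and factor B.

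Every probe of the 8 genes was found by the scanner software on all 10 arrays. Values are normalized intensities on the log2 scale, so a difference of 1 is a doubling, and values of different probes are not comparable with each other. The mean TAB effect of a gene is its mean log2 ratio of TAB over sham across the 5 days, tested with limma with day as a block over all 19976 kept probes. Precision is limited by how many arrays there were. Since each day had 1 sample per operation, p-values measure the spread of the TAB effect between days, and a single day has none.

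5 of the 8 genes were up-regulated by TAB at a Benjamini-Hochberg adjusted p below 0.05, namely C1qa, C1qb, C1qc, C3ar1 and Cfb, whereas 7.47% of all kept probes were called higher. None of the 8 was called lower by limma, against 6.73% of all kept probes, and at an unadjusted p below 0.05 Serping1 joined the genes that were higher and none was lower, while 6750 of the 19976 kept probes were below it in either direction. The same 5 genes had all 5 TAB values above all 5 sham values, which 8.78% of all kept probes did. The median of the mean log2 ratios was 1.31 for the 8 genes and -0.05 for all kept probes. Over all kept probes limma called 1492 higher and 1344 lower, and 1747 and 884 with median scaling alone or 1856 and 979 with quantile normalization within each operation, under which the same count of complement genes, 5, was called higher. Without day 28 all 5 passed the limma test, whereas without day 3, 5, 7 or 14 none of the 8 genes did, with adjusted p-values from 0.0506 to 0.106 for the 5 genes. Calls were lost over the whole array too. Without day 28, 1455 of all kept probes were called higher, and without day 3, 5, 7 and 14 these were 13, 33, 21 and 126. The mean log2 ratios of the 5 genes stayed between 1.13 and 2.72 whichever day was left out. With no filter on low intensities, C1qb and C3ar1 alone were called, 2 of the 8, while 264 of all probes were called higher.

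**Figure D1:**
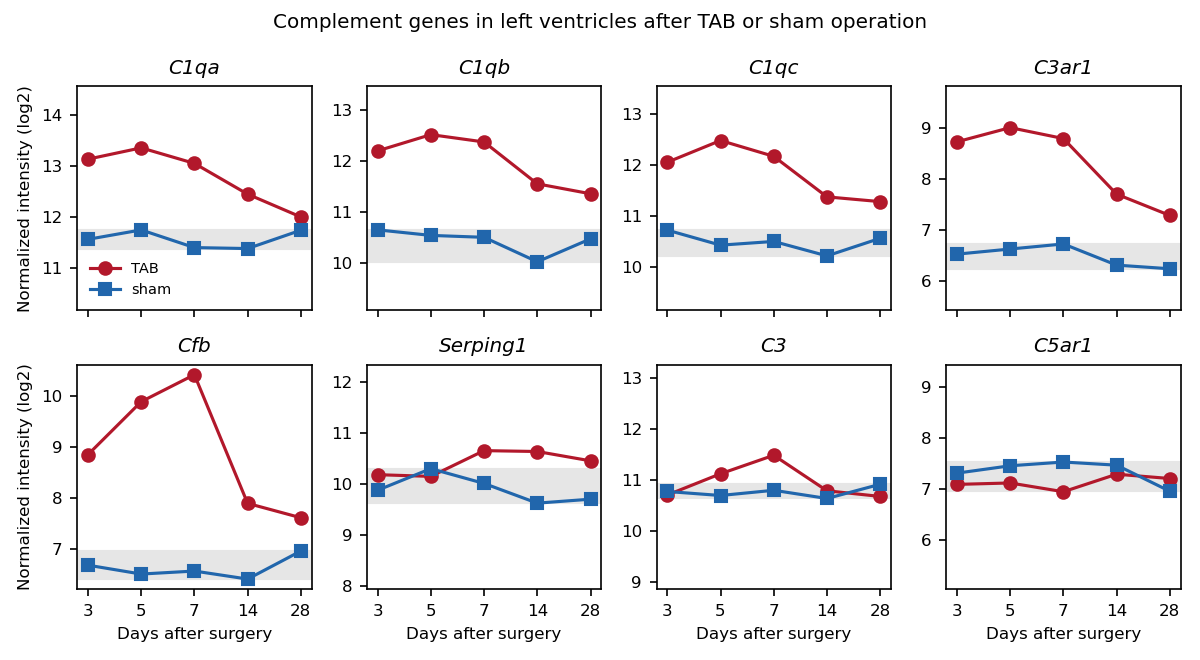
Normalized intensity (log2, vertical axis, all panels spanning the same number of log2 units) of the 8 complement genes by day after surgery, 1 sample per point, with TAB as circles, sham as squares and the range of the sham samples shaded. All TAB points of C1qa, C1qb, C1qc, C3ar1 and Cfb lie above the sham range, with Cfb highest on day 7 at 10.42, while C3, C5ar1 and Serping1 overlap it.

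C1qa, C1qb and C1qc encode the A, B and C chains of C1q, the recognition molecule of the classical pathway. C1qa measured 13.14, 13.36, 13.05, 12.45 and 12.003 in the TAB samples of days 3, 5, 7, 14 and 28, and 11.56, 11.75, 11.40, 11.38 and 11.74 in the sham samples of the same days. The groups did not overlap, although the TAB value of day 28 was only 0.26 above its sham sample. C1qa was 2.35-fold higher on average, with a mean log2 ratio of 1.23 (SE 0.23, 95% interval 0.67 to 1.80, limma adjusted p = 0.0294).

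C1qb measured 12.20, 12.51, 12.37, 11.55 and 11.35 in the TAB samples in the order of the days, and 10.65, 10.54, 10.50, 10.02 and 10.47 in the sham samples. The lowest TAB value stood well clear of the highest sham value, and the sham sample of day 14 was the low one of its group. The mean log2 ratio of C1qb was 1.56 (SE 0.18, 95% interval 1.13 to 1.997), a 2.95-fold difference with the lowest adjusted p of the 8 genes in the limma fit, 0.0152.

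C1qc measured 12.05, 12.48, 12.17, 11.37 and 11.28 in the TAB samples and 10.72, 10.42, 10.50, 10.21 and 10.56 in the sham samples. Its groups did not overlap either, and as for the other chains its highest value was the TAB sample of day 5. C1qc was 2.61-fold higher, with a mean log2 ratio of 1.39 (SE 0.20, 95% interval 0.89 to 1.88, limma adjusted p = 0.0205). With no filter on low intensities, C1qa and C1qc were not called (limma adjusted p = 0.0672 and 0.0526) and C1qb was (0.0443). Without day 3, 5, 7 or 14 the limma adjusted p lay between 0.0646 and 0.0995 for C1qa, between 0.0506 and 0.0727 for C1qb and between 0.0519 and 0.0865 for C1qc.

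The chains of C1q moved together over time. Averaged over the chains, the log2 ratio was 1.48, 1.88, 1.73, 1.25 and 0.62 in the order of the days. The log2 ratio of C1qb exceeded that of C1qa by 0.33 on average (SD 0.25 over the 5 days) and that of C1qc by 0.18 (SD 0.16), and in both cases the sign held on 4 of 5 days. The mean log2 ratio of C1qc was 0.15 above that of C1qa (SD 0.30), less than the spread between days, and also positive on 4 of 5 days. C1qb, C1qc and C1qa lie next to each other on chromosome 4 in the RefSeq annotation of GRCm38.p6, between Ephb2 and Epha8.

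RefSeq promoter windows of GRCm38.p6, from 250 bases before to 50 after the start of the gene, were at hand for 5 of the 9 genes and were searched on both strands for 6 motifs. Those of 3 genes that rose (C1qb, C1qc and C3ar1) and of C3, which was not called, are shown here to set the genes side by side, 5′ to 3′ in the direction of the gene. Capitals mark GAGGAA or its reverse complement, a core of the sites of ETS factors such as PU.1, in C1qb (chr4:136886151-136886450, minus strand) and C1qc (chr4:136892865-136893164, minus strand). They mark TGACTCA, an AP-1 site, in C3ar1 (chr6:122856108-122856407, minus strand), and TTGCGAAA, a match to a C/EBP core, in C3 (chr17:57228087-57228386, minus strand).
C1qb: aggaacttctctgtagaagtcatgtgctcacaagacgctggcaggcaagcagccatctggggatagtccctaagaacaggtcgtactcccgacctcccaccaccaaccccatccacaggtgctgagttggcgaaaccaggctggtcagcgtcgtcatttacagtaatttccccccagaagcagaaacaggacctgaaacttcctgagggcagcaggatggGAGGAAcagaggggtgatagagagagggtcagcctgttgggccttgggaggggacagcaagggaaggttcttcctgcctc
C1qc: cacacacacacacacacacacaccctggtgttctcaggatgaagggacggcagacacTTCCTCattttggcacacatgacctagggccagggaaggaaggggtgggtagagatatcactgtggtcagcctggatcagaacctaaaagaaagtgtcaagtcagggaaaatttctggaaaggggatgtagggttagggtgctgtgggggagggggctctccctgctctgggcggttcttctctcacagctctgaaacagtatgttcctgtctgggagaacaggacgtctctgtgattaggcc
C3ar1: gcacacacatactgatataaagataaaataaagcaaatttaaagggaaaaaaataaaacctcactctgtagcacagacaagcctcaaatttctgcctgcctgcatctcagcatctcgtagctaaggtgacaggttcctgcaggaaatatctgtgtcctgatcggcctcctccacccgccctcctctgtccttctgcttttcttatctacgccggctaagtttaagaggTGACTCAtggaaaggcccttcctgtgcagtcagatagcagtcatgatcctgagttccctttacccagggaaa
C3: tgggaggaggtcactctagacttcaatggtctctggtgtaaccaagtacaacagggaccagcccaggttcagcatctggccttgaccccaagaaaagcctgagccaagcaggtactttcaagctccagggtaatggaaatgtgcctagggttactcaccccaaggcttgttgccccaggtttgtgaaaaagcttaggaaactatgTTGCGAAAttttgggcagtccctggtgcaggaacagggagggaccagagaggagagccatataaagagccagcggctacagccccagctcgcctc

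The GAGGAA core lay 30 to 25 bases before the start in C1qb and, on the other strand, 193 to 188 bases before it in C1qc, and it occurred in 28.3% of 32851 promoter windows. An AP-1 site (TGANTCA, present in 7.81% of windows) was found in C3ar1 alone among the 5 genes, and a C/EBP core (TTGCGNAA, in 0.798% of windows) in C3 alone. An IRF-type repeat (GAAANNGAA, in 8.56% of windows) was matched in C5ar1 and an NF-kB consensus (in 4.51%) in C1qc, while a STAT motif (TTCNNNGAA, in 8.3%) was in none of the 5. Such matches describe the letters of these windows and not the binding of a factor.

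C3 is the central component on which all activation pathways converge. It measured 10.71, 11.13, 11.49, 10.79 and 10.68 in the TAB samples, and 10.78, 10.70, 10.80, 10.64 and 10.92 in the sham samples. TAB lay above the highest sham value on days 5 and 7 and within the sham range on the other days, so the groups overlapped. The mean log2 ratio of C3 was 0.19 (SE 0.16, 95% interval -0.20 to 0.59), which did not pass the limma test (adjusted p = 0.456), and it was 0.07 without day 7, 0.30 without day 28 and 0.31 with median scaling alone. Its largest log2 ratio, 0.69 on day 7, was a difference between single samples.

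Cfb encodes factor B, the serine protease of the alternative pathway C3 convertase. It measured 8.85, 9.89, 10.42, 7.90 and 7.61 in the TAB samples and 6.68, 6.51, 6.57, 6.41 and 6.96 in the sham samples. All TAB values were above all sham values, with a rise from day 3 to day 7 and far lower values on days 14 and 28. The log2 ratio of TAB over sham reached 3.38 on day 5 and 3.85 on day 7, and by day 28 it was 0.65.

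Cfb had the largest mean log2 ratio of the 8 genes, 2.31 (SE 0.48, 95% interval 1.13 to 3.48), with a limma adjusted p of 0.0351. The probe was dim in the sham samples, with deposited detection p-values between 0.021 and 0.922, and in the TAB samples of day 14 (0.181) and day 28 (0.259), so the sizes of these ratios are uncertain. Cfb lost its call with no filter on low intensities (limma adjusted p = 0.0748) and without day 3, 5, 7 or 14 (0.0646 to 0.106).

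C3ar1 encodes the receptor of C3a, the small fragment released when C3 is cleaved. It measured 8.72, 9.002, 8.79, 7.70 and 7.28 in the TAB samples and 6.52, 6.62, 6.72, 6.31 and 6.23 in the sham samples. The groups did not overlap, and the TAB values of days 3 to 7 stood apart from those of days 14 and 28. C3ar1 was higher in TAB, with a mean log2 ratio of 1.82 (SE 0.23, 95% interval 1.27 to 2.37, limma adjusted p = 0.0170). Without day 3, 5, 7 or 14 the limma adjusted p was 0.0506 to 0.0776. Its sham spots were dim, with detection p-values from 0.0357 to 0.899, and so were its TAB spots of day 14 (0.268) and day 28 (0.424), so the size of the ratio is uncertain, and it was 1.41 with 50 added before log2.

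C5ar1 encodes the receptor of C5a, which attracts neutrophils and monocytes. It measured 7.10, 7.12, 6.95, 7.30 and 7.21 in the TAB samples and 7.32, 7.46, 7.53, 7.47 and 6.96 in the sham samples. TAB was below its sham sample on days 3 to 14 and above it on day 28, and the groups overlapped. The mean log2 ratio was -0.21 (SE 0.14, 95% interval -0.56 to 0.13), not past the limma test (adjusted p = 0.345), and it was -0.12 without day 7 and -0.33 without day 28. The probe was dim in both groups, with detection p-values of 0.414 to 0.994 in TAB and 0.0026 to 0.521 in sham. These values do not rank spots between arrays. The sham spot of day 7 (detection p-value 0.0026) had a raw intensity of 161, and that of day 14 (0.406) had 177.

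Serping1 encodes C1 inhibitor, which inactivates the proteases C1r and C1s bound to C1q. It measured 10.18, 10.14, 10.65, 10.63 and 10.45 in the TAB samples and 9.87, 10.30, 10.01, 9.62 and 9.70 in the sham samples. The TAB values of days 7, 14 and 28 exceeded every sham value and those of days 3 and 5 did not. The mean log2 ratio of 0.51 (SE 0.19, 95% interval 0.06 to 0.97) was 1.43-fold and was not called in the limma fit (adjusted p = 0.113). It was called when probes not found on all arrays were left out (adjusted p = 0.0426) and when limma was run with trend and robust on (0.0396).

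**Figure D2:**
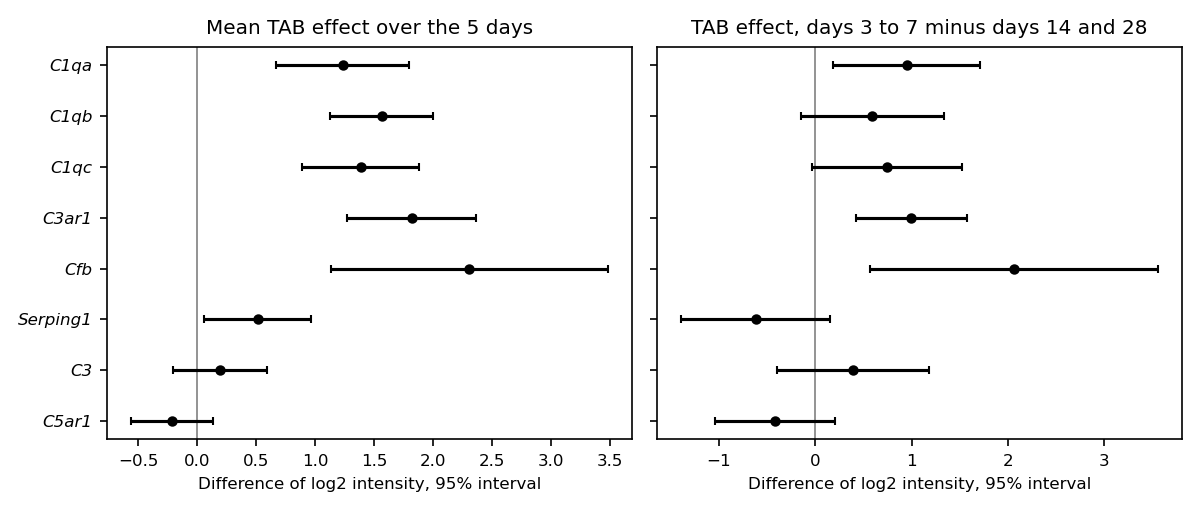
Mean log2 ratio of TAB over sham across the 5 days (left) and the mean log2 ratio of days 3 to 7 minus that of days 14 and 28 (right), with unadjusted 95% intervals from limma, for the 8 genes. Cfb has the largest mean effect, 2.31, and the widest interval, and Serping1 and C5ar1 are the genes whose early minus late difference lies below 0.

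A gene counted as DE here if its log2 ratio of the day lay beyond 2 SDs of the ratios of all kept probes. The rule is like that of the study, which used 1 probe per gene and whose methods describe quantile normalization for each condition, that is within each operation. Among the 8 genes, C3ar1 and Cfb were DE and higher on day 3 (3.07% of all kept probes), C1qb, C1qc, C3ar1 and Cfb on day 5 (3.77%), and C1qb, C3ar1 and Cfb on day 7 (3.71%). C1qb and Cfb were DE on day 14 (3.29%), and none was on day 28 (3.36%). The log2 ratio of C1qb on day 14, 1.53, was taken against the sham sample that was low for this gene, at 10.02. With median scaling alone there were 4 DE genes on day 3 and 5 on day 7, and quantile normalization within each operation also gave 5 on day 7. Several log2 ratios were close to the threshold, which was 1.75, 1.87, 1.71, 1.46 and 1.38 on the 5 days. With a fixed threshold of a log2 ratio of 1, 5 genes were higher on day 3 (9.63% of all kept probes), 5 genes on day 5 (10.7%) and again 5 genes on day 7 (9.2%). At the later days 6 genes (day 14, 7.23%) and 1 gene (day 28, 5.86%) were.

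The TAB effect was larger on days 3 to 7 than on days 14 and 28 for 6 of the 8 genes, but no difference between the stages passed the limma test. Log2 ratios of all kept probes were also more widely spread early. Their SDs were 0.87, 0.94, 0.86, 0.73 and 0.69 in the order of the days. The early minus late difference of the log2 ratios was 2.06 for Cfb (SE 0.58, limma adjusted p = 0.433), 1.00 for C3ar1 (SE 0.23, adjusted p = 0.425) and 0.95 for C1qa (SE 0.30, adjusted p = 0.439). It was 0.75 for C1qc (SE 0.30), 0.59 for C1qb (SE 0.29) and 0.39 for C3 (SE 0.31). The difference ran the other way for Serping1, at -0.62 (SE 0.30), and for C5ar1, at -0.42 (SE 0.24). Single days weighed on these differences. Without day 28 they were 0.54 for C1qa, 0.27 for C1qb, 0.20 for C3 and -0.20 for C5ar1, and without day 14 they were 0.91 for C1qb and -0.63 for C5ar1. That of C3 was 0.60 without day 3 and 0.22 without day 7, and that of Serping1 was -0.41 without day 5. None of the 19976 probes passed in this limma fit (0%, lowest adjusted p 0.227), while 2086 probes, among them Cfb, C3ar1 and C1qa, had an unadjusted p below 0.05. With trend and robust on, 35 of all kept probes passed, and 0 of the 8 genes.

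**Figure D3:**
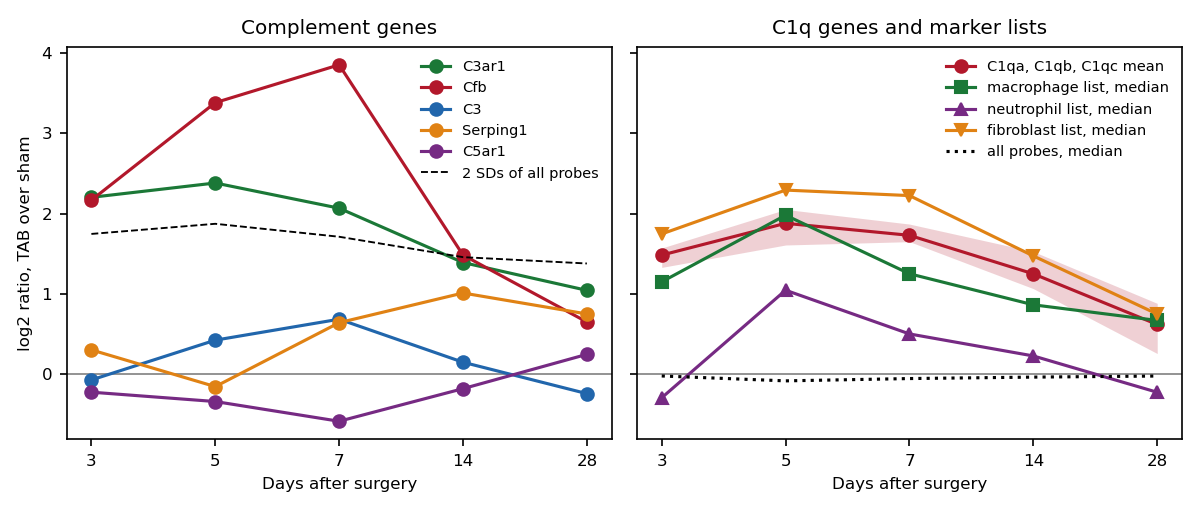
log2 ratio of TAB over sham by day after surgery, each ratio from 1 TAB and 1 sham sample. Left, 5 complement genes with the day's threshold of 2 SDs of all kept probes dashed, where Cfb reaches 3.85 on day 7 and falls to 0.65 on day 28; right, the mean of the C1q genes with the range of the chains shaded, beside the median of the macrophage, neutrophil and fibroblast lists and of all kept probes.

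Most markers of macrophages moved in the same direction as the C1q genes, C3ar1 and Cfb. Of the 15 kept probes of a macrophage list, 12 were called higher (7.47% of all kept probes) and 0 lower (6.73%). The probes not called were those of Cd163 (mean log2 ratio 0.32), Lyve1 (0.15) and Timd4 (-0.19, below 0 on all 5 days). The summed intensity of the 15 probes was 4754 to 10273 in TAB samples and 3145 to 3483 in sham samples. The median log2 ratio of that list was 1.15, 1.98, 1.25, 0.87 and 0.67 on the 5 days. Medians in the same order were 1.75, 2.29, 2.22, 1.47 and 0.75 for a fibroblast list and -0.29, 1.05, 0.50, 0.23 and -0.22 for a neutrophil list, so all 3 lists, like C1q, were highest on day 5. Of 8 fibroblast probes 5 were called higher, with a summed intensity of 58547 to 80793 in TAB and 46731 to 51324 in sham. These were the matrix genes Col1a2, Col3a1, Postn and Fn1, with mean log2 ratios of 2.80 to 3.68, and Lum with 0.59. Tcf21 (0.24) and both probes of Dcn (0.26 and 0.19) were not called. A summed intensity follows its brightest probes, here those of Dcn, at 13.9 to 14.8 on the log2 scale in sham. The other kept fibroblast probes measured at most 11.6 in sham. Of 8 neutrophil probes 1, of S100a8, was called higher although it was found on no array, and the summed intensity overlapped, at 342 to 665 in TAB and 343 to 452 in sham. The part of these cell types in the complement values was not tested, and in whole tissue more cells of a type and more RNA per cell cannot be told apart.

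The 10 cardiomyocyte probes, which mark the labelled tissue, had a summed intensity of 256070 to 262790 in TAB and 274140 to 297107 in sham, and 2 of them, both of Atp2a2, were called lower. The sum includes Myl2, whose spots were near the ceiling of the scanner, at 15.999 on the log2 scale in the TAB samples. None of the 8 endothelial, 4 adipocyte, 2 erythroid or 3 atrial probes was called, 1 of 7 lymphocyte probes was called lower, and 1 of 6 hepatocyte probes was called lower. Over all kept probes, 7.47% were called higher and 6.73% lower. The atrial probes differed most in the pair of day 14, with log2 ratios of -2.24 for Myl7, -1.56 for Myl4 and -2.76 for Sln, and all TAB values of Myl7 lay below all sham values. The part of atrial tissue in the complement values of that day was not tested. The probe of Alb, the main liver transcript, was found on no array and was not kept.

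The rest of the complement system was split between the directions. Of 49 further genes, 43 had a probe and 35 a kept probe, with 36 probes in all, of which 6 were called higher (7.47% of all kept probes), 5 lower (6.73%) and 25 neither, and their median log2 ratio was -0.07. Receptors made up 5 of the 6 probes called higher, out of 7 receptor probes. The probes called lower were 2 of 8 probes of the classical and lectin pathways, 2 of 8 of the terminal pathway and 1 of 11 of the regulators.

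Among the receptors, Itgb2, the shared beta chain of complement receptors CR3 and CR4, was 3.36-fold higher with a mean log2 ratio of 1.75 (SE 0.26, limma adjusted p = 0.0205). Its sham values were low, at 5.79 to 6.38, and with 50 added before log2 its ratio was 1.28. Itgam, the alpha chain of CR3, had a mean log2 ratio of 1.26 (adjusted p = 0.0178), or 0.92 with 50 added. Itgax, the alpha chain of CR4, was found on 2 TAB and 0 sham arrays, and its mean log2 ratio of 2.16 was not called (adjusted p = 0.0601). Vsig4, a receptor of tissue macrophages for C3 fragments, had a mean log2 ratio of 1.61 (adjusted p = 0.0320) and was found on 5 TAB but 2 sham arrays; with 50 added before log2 its ratio was 0.71. C5ar2, listed under its older symbol Gpr77 and encoding a second receptor of C5a, had a mean log2 ratio of 0.71 (adjusted p = 0.0286), or 0.41 with 50 added. Cd93, once proposed as a receptor of C1q, had one of 0.61 (adjusted p = 0.0455).

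Cfd, the protease that cleaves factor B and is abundant in fat, was the only kept alternative pathway gene besides Cfb to be called, with a mean log2 ratio of 0.79 (limma adjusted p = 0.0397). Its TAB values of 7.22 to 8.25 lay above its sham values of 6.75 to 6.96, and with 50 added before log2 its ratio was 0.60. Cfp, which encodes properdin, the stabilizer of the alternative pathway convertase, had a mean log2 ratio of 0.68 (adjusted p = 0.111). C2, the classical pathway counterpart of factor B, had a mean log2 ratio of 0.41 and was not called either (adjusted p = 0.321).

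The 5 genes called lower had mean log2 ratios between -0.58 and -0.80. They were Hc, which encodes C5 (-0.80, limma adjusted p = 0.0358), the collectin genes Colec10 (-0.78, adjusted p = 0.0276) and Mbl2 (-0.72, adjusted p = 0.0258), C9, a subunit of the membrane attack complex (-0.71, adjusted p = 0.0316), and Cpn1, a chain of the carboxypeptidase that inactivates C3a and C5a (-0.58, adjusted p = 0.0446). In each, all 5 TAB values lay below all 5 sham values, which 7.59% of all kept probes showed, as did the regulators Cd59a and Cpn2, which were not called (adjusted p = 0.0538 and 0.0630). C9 was dim, at 4.63 to 5.56 in TAB and 5.85 to 6.15 in sham, and was not found on 1 TAB array. With 50 added before log2 its ratio was -0.35. The ratios of Hc and Mbl2 were then both -0.54, that of Cpn1 -0.44 and that of Colec10 -0.73, so the sizes of these falls depend on low intensities too. Of the 11 genes called in either direction, Itgam alone kept its call without day 14, none did without day 3, 5 or 7, and Cpn1 and Cd93 also lost theirs without day 28. Cpn1 was not called with median scaling alone (limma adjusted p = 0.0547) or with quantile normalization within each operation (0.0534). With no filter on low intensities, Itgam alone was called.

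**Figure D4:**
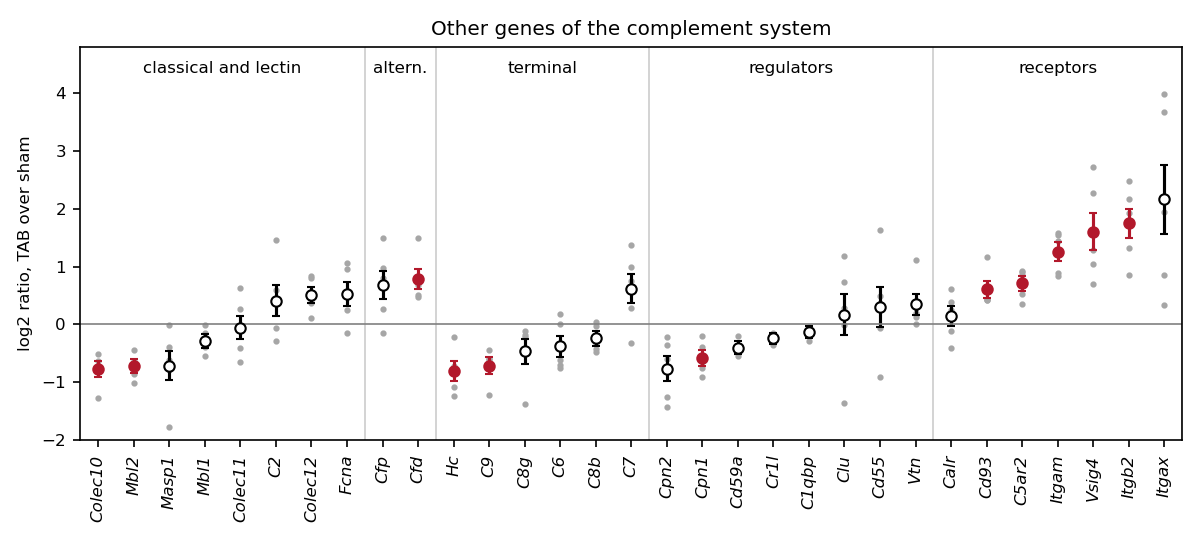
Mean log2 ratio of TAB over sham with its SE (large points, filled where the limma adjusted p was below 0.05) and the 5 ratios by day (small points) for the kept probes of other complement genes found on at least 1 array, grouped by role. The called receptors lie above 0, with Itgb2 at 1.75, and the called terminal, collectin and regulator genes lie below it, with Hc at -0.80.

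The profile over the 10 samples was compared with those of 12060 probes with a symbol found on all arrays. The mean of the C1q genes was matched most closely by Itgb2 (Pearson r = 0.993), Eif6 (0.993), Ddr1 (0.992), Trem2 (0.992) and Slc22a4 (0.991), and C3ar1 took place 23 with 0.985 and Cfb place 226 with 0.961. C3 followed at place 2858 (0.606), Serping1 at 2871 (0.604) and C5ar1 at 9246 (-0.653). C3 was most like 2310004I24Rik (0.944), Batf2 (0.943), Cxcl9 (0.939), Ndfip2 (0.938) and Glb1 (0.924), and Cfb was at place 94 with 0.781. These correlations are descriptions, since the points share the operation and the array, and any pair of probes that differs between TAB and sham correlates over them.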

How the data were processed

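The authors prepared amplified, Cy5-labelled RNA from total RNA, hybridized it to 1-colour Mouse Whole Genome OneArray v2 arrays and quantified spots with GenePix 4.1. They deposited raw intensity per probe and sample, with a background subtracted by a method not given in the sources used here and no scaling between arrays. The deposited detection p-value, whose computation is not given, was used for no call. A deposited flag below 0, whose meaning is not stated, was read as a spot not found, which concerned 40.2% to 47.3% of spots per array.

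Of 26423 probes, 19976 were kept. Arrays were first scaled to the same median. Probes with a scaled intensity under 1 on at least 1 array were dropped, after which quantile normalization was run on all 10 arrays, with the median as the value of each rank, and log2 was taken. limma 3.58.1 (R 4.3.3, trend and robust off) tested the mean TAB effect, and the effect of days 3 to 7 against that of days 14 and 28, with day as a block, over all kept probes with Benjamini-Hochberg adjustment at 0.05. Day is a block because the study took each ratio within a day. As a check of the pairing, each sample's deviation from its group mean was correlated across probes with that of its partner of the same day, with r = 0.112, 0.00148, 0.0466, 0.0164 and 0.0163. Code was tested on simulated data. Other tools were Python 3.11.15, numpy 2.4.6, pandas 2.3.3, scipy 1.17.1 and matplotlib 3.10.9.

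The members, gene lists and tests were chosen with earlier results of these data known. Named were all members, the called genes of the pathway list, the 5 genes most like the C1q mean and C3, and some genes of the marker lists. The motifs were chosen with the promoter sequences in view. C2, Cfp and Itgax were named after their values were seen, as members of roles described, and so were Cd59a and Cpn2, for groups that did not overlap.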

Additional observations from a re-analysis of the deposited data

Results flagged for a closer look

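The sham sample of day 14 stood apart from the other sham samples for C1qb, at 10.02 on the log2 scale, with a gap to its nearest neighbour of 0.718 of the range of the group (Dixon's test). It was the only such value among 38 groups of 5 values tested, and chance alone gives about 1 in 20.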

How the results depend on the processing

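C1qa, C1qb, C1qc, C3ar1 and Cfb kept a positive mean log2 ratio under all 14 alternatives. With no filter and values below 1 set to 1, 2 of the 8 complement genes were called higher, with 1 further pathway probe higher and 0 lower, and 264 of all probes higher and 107 lower. Leaving out a day gave 0 to 5 complement genes called, 0 to 5 further pathway probes higher and 0 to 5 lower, and 13 to 1455 of all probes higher and 0 to 1318 lower. With 50 added before log2, 8 pathway probes were called lower, and over all kept probes 2365 were higher, 2525 lower and 9 differed between early and late days. With trend and robust on these counts over all probes were 2290, 2436 and 35. Median scaling alone gave 884 probes lower, and leaving out probes not found on all arrays gave 2322 lower and 9 differing between stages. Complement genes DE on day 3 numbered 4 with median scaling, 0 with no filter, and 5 with 50 added, with probes not found left out or with a fixed log2 ratio of 1. On day 5 there were 2 with no filter. On day 7 there were 1 with no filter and 5 with median scaling, quantile normalization within each operation, 50 added, probes not found left out or the fixed ratio. On day 14 there were 0 with no filter and 6 with 50 added, probes not found left out or the fixed ratio, and on day 28 there were 4 with 50 added and 1 with the last pair of settings. The cause of these changes was not tested. Without the replicate block, that is with the pairing by day dropped, the same number of complement genes, 5, was called higher, with 2016 of all probes higher and 1859 lower.

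The limits are the single sample per operation and day, dim spots of C5ar1 in both groups and of Cfb and C3ar1 in sham and in TAB on days 14 and 28, and an unstated background method.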
